A study of Mus musculus with 6 samples.

Results

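The 39 genes described here mark the ureteric bud and its derivatives or belong to the keratin and uroplakin families of epithelia, and they were measured in whole kidney rudiments of mouse embryos at E13.5. They were taken from a fixed list of gene symbols, each read by the probe sets that the platform annotation gives to that gene alone. Where a gene had several, the probe set with the highest mean over all arrays stood for it. All 39 genes were on the array, out of 18193 genes named in this way, with 70 probe sets between them, and 17 genes had more than 1. Of the 39, 34 lay above the signal filter, a mean of 5.89 log2 over all arrays, together with 12535 of the 18193 genes.

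The study compared 3 samples of Fz4-/- kidneys with 3 of Fz4+/+ kidneys, taken as pairs from 3 litters, 1 sample of each genotype per litter. Fz4-/- embryos lack the Wnt and Norrin receptor Fz4, encoded by Fzd4, and Fz4+/+ embryos carry the intact gene. The labels give neither strain nor the number of embryos behind a sample, so p-values measure the spread between these samples. RNA was hybridised to Affymetrix MOE430.2 arrays, on which sets of short oligonucleotides read each transcript, and the deposited values are log2 signals from RMA.

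The ureteric bud is an epithelial tube that grows out of the Wolffian duct, branches inside the metanephric mesenchyme and becomes the collecting duct system, the renal pelvis and the ureter. Its cells are joined by E-cadherin and desmosomes, hold simple keratins in their cytoskeleton, and express the transcription factors Gata2, Gata3, Emx2 and Tfap2b. Uroplakins are the membrane plaque proteins of the mature urothelium, the lining of the urinary tract. Kidneys at this stage also form the first nephron epithelia, which share E-cadherin, Epcam and Cdh16 with the bud, so whole-organ RNA does not separate these sources. In such bulk samples, fewer cells of a type and less RNA per cell cannot be told apart.

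Array medians lay between 6.62 and 6.74 log2, and precision is limited by there being 6 arrays. The genotype labels were checked on Fzd4, whose brightest probe set read 4.37, 3.58 and 6.22 log2 in the Fz4-/- samples of litters 1 to 3, against 11.21, 11.12 and 10.31 in the Fz4+/+ samples. Litters differed strongly, and 54.3% of the 12535 tested genes were higher in both samples of litter 3 than in both of litter 1. The Fz4+/+ sample of litter 2 was the lowest of the 6 for 38.0% of tested genes, more than any other sample. Results that rest on it are given below with and without it.

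Most of these epithelial genes lay slightly above their Fz4+/+ level in Fz4-/- kidneys, with Perp, Krt19, Krt7 and Mal at the top, and none passed the test. limma called 0 of the 34 tested members and 0 of 27022 probe sets (0% at an adjusted p under 0.05). At an unadjusted p under 0.05 it gave 0 members and 239 probe sets, or 0.884%, and with the litter as a block 2 members and 841 probe sets. Fzd4 itself was not called with genotype as the sole term, at -6.16 ± 0.68 log2 (SE) and limma's adjusted p of 0.999988. An uncalled member is therefore not shown to be unchanged. Of the 34 members 30, or 88.2%, were above 0, whereas 63.5% of all tested genes were. The median difference was 0.154 log2 over the members and 0.034 over all tested genes, with members running from -0.14 to 0.73. The list was proposed with earlier results of these data known, so neither figure is independent evidence of its direction.

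A stricter count gave a small number. In 2 of 34 members, Krt7 and Tfap2b, every Fz4-/- sample lay above every Fz4+/+ sample, which is 5.9% of members against 2.56% of all tested genes. For 0 members did every Fz4-/- sample lie below, against 1.25% of genes. Within litters, 16 members (47.1%) were higher in the Fz4-/- sample in all 3 litters, whereas 15.5% of tested genes were, and 0 members were lower in all 3, against 7.26%.

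**Figure D1:**
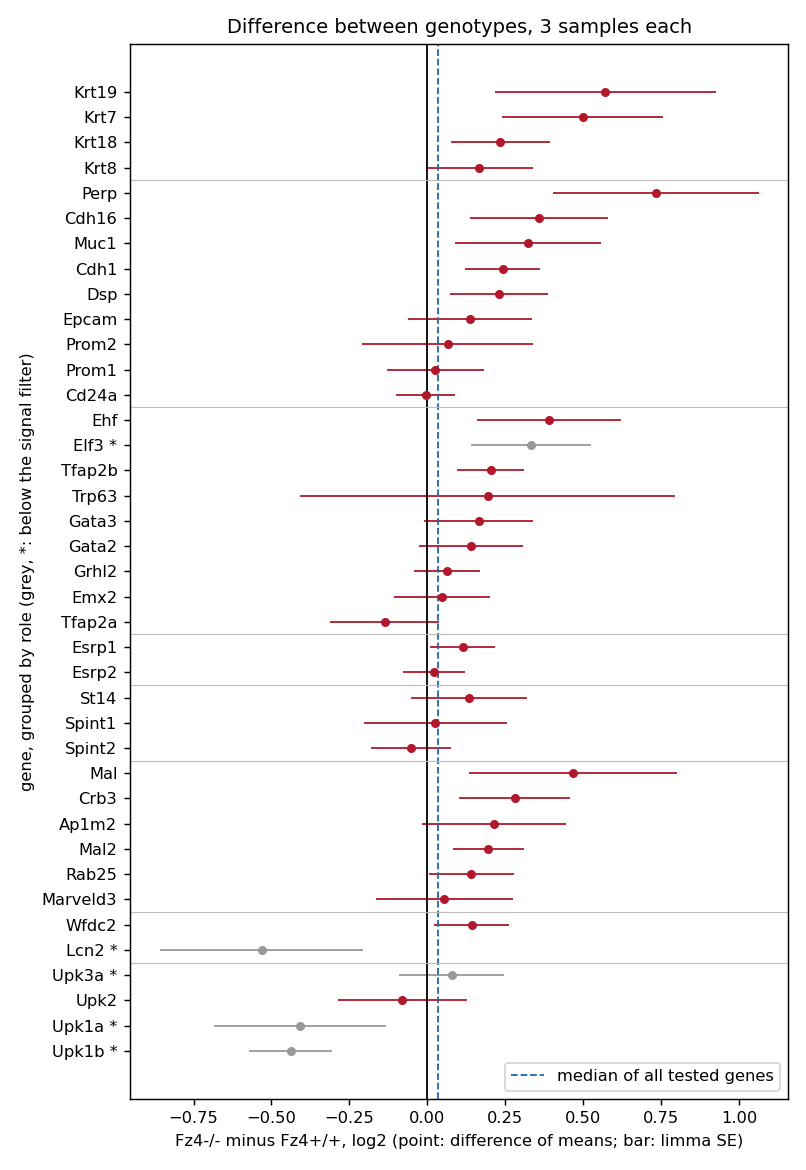
Difference between Fz4-/- and Fz4+/+ kidneys for each of the 39 genes, in log2, grouped by role; points are differences of means of 3 samples and bars are limma standard errors. Of the 34 genes above the signal filter, in red, 30 lie above 0, the dashed line marks the median of all tested genes at 0.034, and the 5 genes below the filter are grey.

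The keratins, the intermediate filament proteins of simple epithelia, all lay above 0. All 4 passed the filter, with a median difference of 0.367 log2, and all 4 had their lowest value in the Fz4+/+ sample of litter 2. Krt7, a type II keratin of ducts, read 9.47, 9.56 and 9.65 log2 in the Fz4-/- samples of litters 1 to 3, against 9.26, 8.48 and 9.44 in the Fz4+/+ samples. These values do not overlap, although the highest Fz4+/+ value, of litter 3, lies just under the lowest Fz4-/- value. The difference was 0.50 ± 0.26 (SE), with limma's adjusted p of 0.999988 and an exact permutation p of 0.1, the smallest that 3 against 3 can give. Within litters 1 to 3 it was 0.20, 1.08 and 0.22, so litter 2 gave the most. Leaving out that litter's Fz4+/+ sample gave a difference of means of 0.21.

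Krt19, the smallest type I keratin, read 8.05, 8.63 and 8.76 log2 in Fz4-/- samples, against 8.10, 7.21 and 8.41 in Fz4+/+ samples. The genotypes overlap, because the Fz4-/- sample of litter 1 lies under 2 Fz4+/+ samples. Its difference was 0.57 ± 0.35 (SE), and 0.22 without the Fz4+/+ sample of litter 2. Krt18, the type I partner of Krt8, read 11.51, 11.59 and 11.71 log2 in Fz4-/- samples, against 11.38, 11.10 and 11.62 in Fz4+/+ samples. Krt8, the type II keratin that pairs with Krt18, read 10.73, 10.69 and 10.94 log2 in Fz4-/- samples, against 10.66, 10.32 and 10.88 in Fz4+/+ samples. For both genes the Fz4-/- samples lay inside or just above a Fz4+/+ range that opened downwards in litter 2. The differences were 0.23 ± 0.16 (SE) for Krt18 and 0.17 ± 0.17 (SE) for Krt8, and with the litter 2 Fz4+/+ sample left out they were 0.10 and 0.015. In each of the 3 litters the Fz4-/- sample was the higher one, by 0.13, 0.49 and 0.089 for Krt18 and by 0.063, 0.38 and 0.06 for Krt8. The other 2 probe sets of Krt8 gave 0.12 and 0.26, both in the same direction, and -0.028 and 0.094 with that sample left out.

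Promoters of keratin genes that share this profile, and of Gata3 and Muc1, are printed to show which letters of the bound motifs of factors among the 39 genes they hold. The windows come from RefSeq promoters of GRCm38.p6, run from 250 bases before the start of the gene to 50 after it, and read 5′ to 3′ on the gene's own strand. Capitals mark matches to GCCNNNGGC, a form of the AP-2 motif, to AACNNGTT, a form of the grainyhead-like motif, or to AGATAA, a form of the GATA motif, on either strand.
Krt7, chr15:101412153-101412452, plus strand: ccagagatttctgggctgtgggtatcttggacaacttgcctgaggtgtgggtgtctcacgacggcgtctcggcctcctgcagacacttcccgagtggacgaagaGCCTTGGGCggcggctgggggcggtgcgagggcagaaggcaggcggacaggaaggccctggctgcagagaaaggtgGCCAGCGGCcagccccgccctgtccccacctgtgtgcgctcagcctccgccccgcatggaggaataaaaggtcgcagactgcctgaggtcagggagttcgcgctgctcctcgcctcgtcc
Krt18, chr15:102027966-102028265, plus strand: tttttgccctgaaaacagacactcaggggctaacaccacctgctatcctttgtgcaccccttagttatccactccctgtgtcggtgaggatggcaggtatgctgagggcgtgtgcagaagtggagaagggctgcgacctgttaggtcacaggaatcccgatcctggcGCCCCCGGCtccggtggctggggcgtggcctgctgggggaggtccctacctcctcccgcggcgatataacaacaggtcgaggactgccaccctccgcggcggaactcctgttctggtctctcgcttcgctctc
Krt8, chr15:102004293-102004592, minus strand: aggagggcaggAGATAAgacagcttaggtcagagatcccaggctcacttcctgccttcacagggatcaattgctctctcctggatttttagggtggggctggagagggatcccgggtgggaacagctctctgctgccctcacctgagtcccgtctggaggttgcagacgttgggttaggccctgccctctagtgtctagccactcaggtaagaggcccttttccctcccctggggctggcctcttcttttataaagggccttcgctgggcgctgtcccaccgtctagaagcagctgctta
Gata3, chr2:9878551-9878850, minus strand: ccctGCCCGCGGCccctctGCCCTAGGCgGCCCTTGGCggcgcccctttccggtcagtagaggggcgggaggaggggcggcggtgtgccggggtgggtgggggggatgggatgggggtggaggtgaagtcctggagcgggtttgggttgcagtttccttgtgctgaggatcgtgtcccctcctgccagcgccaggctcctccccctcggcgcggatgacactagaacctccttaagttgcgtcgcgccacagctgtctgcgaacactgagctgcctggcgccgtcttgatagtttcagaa
Muc1, chr3:89228806-89229105, plus strand: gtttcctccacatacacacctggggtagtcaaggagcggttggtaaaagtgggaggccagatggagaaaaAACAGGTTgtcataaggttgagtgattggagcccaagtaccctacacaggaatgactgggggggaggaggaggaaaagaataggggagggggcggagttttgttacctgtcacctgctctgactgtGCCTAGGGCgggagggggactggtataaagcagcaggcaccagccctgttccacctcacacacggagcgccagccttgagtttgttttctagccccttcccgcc

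RefSeq promoter windows were at hand for 24 of the 39 genes. The AP-2 letters stood in 10 of these 24 genes, or 41.7%, against 18.5% of the 27025 genes with a window. They occurred 2 times in the Krt7 window, 3 times in that of Gata3 and once each in those of Krt18 and Muc1. The other genes with a match were Dsp, Gata2, Prom2, Spint1, Spint2 and Wfdc2. The grainyhead-like letters stood in 3 of the 24 (12.5%, against 4.8% of genes), namely Muc1, Prom1 and Rab25. The GATA letters stood in 3 of the 24 (12.5%, against 12.7%), namely Krt8, Prom2 and Upk3a. A match is a description of these letters, and base composition differs between promoters.

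**Figure D2:**
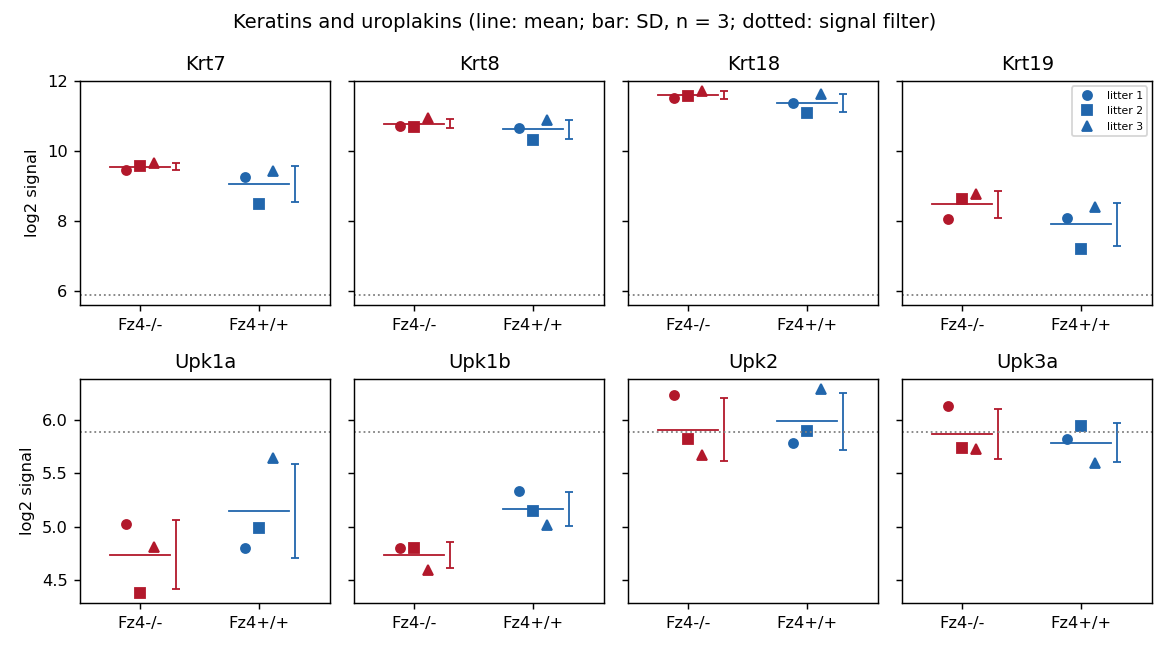
Log2 signal of the 4 keratins (upper row) and the 4 uroplakins (lower row) by genotype; symbols give the litter, horizontal lines the mean, bars the SD (n = 3) and the dotted line the signal filter at 5.89 log2. The Fz4+/+ sample of litter 2 is the lowest point of every keratin, and the uroplakins lie near or under the filter, on an axis of their own.

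Among the 9 adhesion and surface genes, 8 lay above 0 with a median of 0.23 log2, and none passed the test. Perp, a desmosomal membrane protein and p53 target, had the highest difference of all 34 tested members. It read 6.16, 7.26 and 6.88 log2 in Fz4-/- samples, against 5.63, 6.07 and 6.41 in Fz4+/+ samples. The Fz4-/- samples of litters 2 and 3 lie above every Fz4+/+ sample, and that of litter 1 lies under the Fz4+/+ sample of litter 3. Perp differed by 0.73 ± 0.33 (SE), with limma's adjusted p of 0.999988, and by 0.53, 1.19 and 0.48 in litters 1 to 3. Leaving out 1 sample at a time gave between 0.486, with Fz4-/- of litter 2 dropped, and 1.04, with Fz4-/- of litter 1 dropped. Array weights gave 1.43, a value that leans on the Fz4-/- sample of litter 2, where Perp was highest. Its weight was 8.81, against 0.218 to 2.99 for the others. A fit that blocks on the litter gave an SE of 0.18 with limma's unadjusted p at 0.0123, whereas the adjusted p was 0.999986.

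Cdh16, the kidney-specific cadherin of tubule and duct cells, gave a similar difference in every litter and was picked out after its values were seen. It read 9.93, 9.68 and 10.24 log2 in Fz4-/- samples, against 9.57, 9.27 and 9.92 in Fz4+/+ samples, and the groups overlap because the Fz4-/- value of litter 2 is under the Fz4+/+ value of litter 3. The difference was 0.36 ± 0.22 (SE), and within litters 1 to 3 it was 0.36, 0.40 and 0.31. The difference of means came to 0.20 without the Fz4+/+ sample of litter 2 and to 0.525 without that of litter 3. A fit that blocks on the litter gave an SE of 0.09 with limma's unadjusted p at 0.0125, and an adjusted p of 0.999986. Perp and Cdh16 are the 2 of 34 members with an unadjusted p under 0.05 in that fit, beside 841 of 27022 probe sets.

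Cdh1, which encodes E-cadherin of the adherens junction, read 11.07, 11.11 and 10.93 log2 in Fz4-/- samples, against 10.96, 10.73 and 10.69 in Fz4+/+ samples. Values cross at a single point, where litter 3 in Fz4-/- lies under litter 1 in Fz4+/+ by a small margin. The difference was 0.24 ± 0.12 (SE), with limma's adjusted p of 0.999988 and 0.21 without the Fz4+/+ sample of litter 2. Dsp, the desmoplakin that ties keratins to desmosomes, differed by 0.23 ± 0.16 (SE), and Muc1, an apical mucin, by 0.32 ± 0.23 (SE). Leaving out the Fz4+/+ sample of litter 2 gave 0.076 and 0.13. A further Dsp probe set above the filter gave 0.21, and 0.19 without that sample. Epcam, an adhesion molecule of nearly all epithelia, differed by 0.14 ± 0.20 (SE), and by -0.042 without that sample, so on this probe set its sign rests on it. Its other probe set, also above the filter, gave 0.16, and 0.086 without that sample.

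Cd24a and Prom1, a surface glycoprotein and a protein of membrane protrusions, had bright probe sets and small differences. Cd24a read 13.41, 13.42 and 13.40 log2 in Fz4-/- samples, against 13.40, 13.49 and 13.35 in Fz4+/+ samples, a difference of -0.0050 ± 0.10 (SE). The 6 values lie within a narrow band and the groups overlap. A further Cd24a probe set was lower in Fz4-/- samples without overlap, with a difference of -0.09 ± 0.09 (SE). Prom1 read 11.69, 11.78 and 11.93 log2 in Fz4-/- samples, against 11.70, 11.57 and 12.05 in Fz4+/+ samples, and the highest as well as the lowest of the 6 values came from Fz4+/+ samples. Its difference was 0.026 ± 0.16 (SE), and that of Prom2, its relative, was 0.066 ± 0.27 (SE). With the litter 2 Fz4+/+ sample left out, Cd24a, Prom1 and Prom2 gave 0.033, -0.074 and -0.0063, each with the opposite sign.

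Of the 8 transcription factors that passed the filter 7 lay above 0, with a median of 0.153 log2, and none passed the test. Tfap2b, an AP-2 factor of the collecting duct, read 8.27, 8.35 and 8.35 log2 in Fz4-/- samples, against 8.24, 8.00 and 8.11 in Fz4+/+ samples. The groups do not overlap, and the lowest Fz4-/- and the highest Fz4+/+ value, both of litter 1, are 0.03 apart. The difference was 0.20 ± 0.11 (SE), with limma's adjusted p of 0.999988 and an exact permutation p of 0.1. Its second probe set gave 0.16 ± 0.30 (SE), with overlap. Both probe sets were lowest in the litter 2 Fz4+/+ sample. Dropping that sample left 0.15 on the brightest probe set and turned the second to -0.18. The sign of the second probe set thus rests on that sample.

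Ehf, an ETS factor of epithelia, differed by 0.39 ± 0.23 (SE), and its differences within litters 1 to 3 were -0.14, 0.87 and 0.44. The Fz4-/- sample of litter 1 thus lay below its Fz4+/+ littermate, and both other Fz4-/- samples above theirs. Its difference of means came to 0.23 with the litter 2 Fz4+/+ sample left out, and to 0.636 with that of litter 1 left out. Further Ehf probe sets above the filter gave 0.11 and 0.31. With the litter 2 Fz4+/+ sample left out they gave -0.13 and 0.15, so the sign then depends on the probe set. Gata2 and Gata3, zinc finger factors of the Wolffian duct lineage, differed by 0.14 ± 0.17 (SE) and 0.17 ± 0.18 (SE). Leaving out the Fz4+/+ sample of litter 2 gave 0.20 and 0.0025. Emx2, a homeobox factor the bud needs for branching, differed by 0.048 ± 0.15 (SE), and Grhl2, a grainyhead-like regulator of junction genes, by 0.063 ± 0.10 (SE), and with the litter 2 Fz4+/+ sample left out they gave 0.078 and 0.12. Tfap2a differed by -0.14 ± 0.18 (SE) on its brightest probe set, and by 0.08 and 0.09 on its other ones, so its sign depends on the probe set.

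Trp63, which encodes p63 of basal epithelial cells, had the widest spread of the 34 tested members. It read 7.20, 6.44 and 6.13 log2 in Fz4-/- samples, against 6.71, 7.35 and 5.13 in Fz4+/+ samples. Both samples of litter 3 were lowest, and the Fz4+/+ sample of litter 2, lowest for most members, was here the highest of all. The difference was 0.19 ± 0.60 (SE), and 0.67 without that sample, and the other 3 probe sets, all below the filter, lay under 0, between -0.25 and -0.09.

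The epithelial splicing factors Esrp1 and Esrp2 were nearly level, at 0.11 ± 0.10 (SE) and 0.021 ± 0.10 (SE), or 0.067 and 0.0084 with the litter 2 Fz4+/+ sample left out. So were the genes of the membrane protease matriptase and its inhibitors. St14, the protease, differed by 0.13 ± 0.19 (SE), and the Kunitz inhibitors Spint1 and Spint2 by 0.025 ± 0.23 (SE) and -0.053 ± 0.13 (SE). St14 was above its Fz4+/+ littermate in litters 1 and 2, by 0.37 and 0.38, and below it in litter 3, at -0.34. With the litter 2 Fz4+/+ sample left out, St14, Spint1 and Spint2 gave 0.073, -0.17 and -0.034, so Spint1 changed sign. Spint1 was also below 0 without the Fz4-/- sample of litter 3, at -0.059, and without the Fz4+/+ sample of litter 1, at -0.0040. The other probe sets of Esrp2 and Spint2, above the filter too, gave -0.04 and 0.12, or -0.21 and 0.033 without the litter 2 Fz4+/+ sample. The signs of Esrp2 and Spint2 thus depend on the probe set.

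All 6 polarity and trafficking genes lay above 0, with a median of 0.204 log2, and 5 of them had their lowest value in the Fz4+/+ sample of litter 2. Mal, a raft protein of apical transport, differed by 0.47 ± 0.33 (SE), and by 0.089 without that sample. That sample read 7.72 log2, which is 1.04 below the next lowest, the widest such gap among the 39 genes. A further Mal probe set above the filter gave 0.19, and 0.10 without that sample. Mal2, which acts in transcytosis, read 9.87, 10.15 and 10.04 log2 in Fz4-/- samples, against 9.82, 9.77 and 9.89 in Fz4+/+ samples. The Fz4-/- sample of litter 1 lies just under the Fz4+/+ sample of litter 3, and the other Fz4-/- samples lie above all Fz4+/+ samples. The difference was 0.20 ± 0.11 (SE), and 0.17 without the Fz4+/+ sample of litter 2. Crb3, of the apical Crumbs complex, differed by 0.28 ± 0.18 (SE), Ap1m2, the epithelial AP-1 adaptor subunit, by 0.21 ± 0.23 (SE), and Rab25, a recycling GTPase, by 0.14 ± 0.14 (SE). Without that sample they differed by 0.094, 0.0047 and 0.028. Further Crb3 probe sets above the filter gave 0.085 and 0.0665, or -0.011 and 0.044 without that sample. Marveld3, a tight junction protein, differed by 0.055 ± 0.22 (SE) and was highest in the Fz4+/+ sample of litter 2, without which it differed by 0.26.

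Wfdc2, a secreted protein with whey acidic domains, read 11.90, 11.83 and 11.88 log2 in Fz4-/- samples, against 11.90, 11.57 and 11.71 in Fz4+/+ samples. The Fz4+/+ samples of litters 2 and 3 lie below all others, and litter 1 is level between the genotypes. The difference was 0.14 ± 0.12 (SE), and 0.064 with the Fz4+/+ sample of litter 2 left out.

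Uroplakins were low in signal in both genotypes, near or under the filter. Upk2 alone passed the filter, with 6.24, 5.83 and 5.67 log2 in Fz4-/- samples, against 5.78, 5.90 and 6.30 in Fz4+/+ samples. The highest value of each genotype came from a different litter, and the difference was -0.08 ± 0.21 (SE). Upk3a read 6.14, 5.74 and 5.73 log2 in Fz4-/- samples, against 5.83, 5.95 and 5.60 in Fz4+/+ samples. Upk1a, a tetraspanin of the plaque, read 5.02, 4.38 and 4.81 log2 in Fz4-/- samples, against 4.80, 4.99 and 5.65 in Fz4+/+ samples. The values of both genes overlap between the genotypes. With the litter 2 Fz4+/+ sample left out, Upk2 gave -0.13 and Upk3a 0.16, which was 0.078 ± 0.17 (SE) over all samples.

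Upk1b, the other tetraspanin, was the one uroplakin whose groups were apart. It read 4.80, 4.80 and 4.59 log2 in Fz4-/- samples, against 5.34, 5.15 and 5.02 in Fz4+/+ samples, and every Fz4-/- sample was lower. The difference was -0.44 ± 0.13 (SE), and in the fit without the filter limma's unadjusted p was 0.0164 and its adjusted p 0.999995. Its other 3 probe sets also lay under 0, between -0.28 and -0.18, 1 of them without overlap. All 4 had means below 5.89 log2, a range where RMA compresses differences, and no detection call was made. Of the remaining genes below the filter, Elf3, an ETS factor of mature epithelia, differed by 0.33 ± 0.19 (SE) and by 0.15 without the Fz4+/+ sample of litter 2, and Lcn2, an iron-binding protein of stressed tubules, by -0.53 ± 0.33 (SE).

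**Figure D3:**
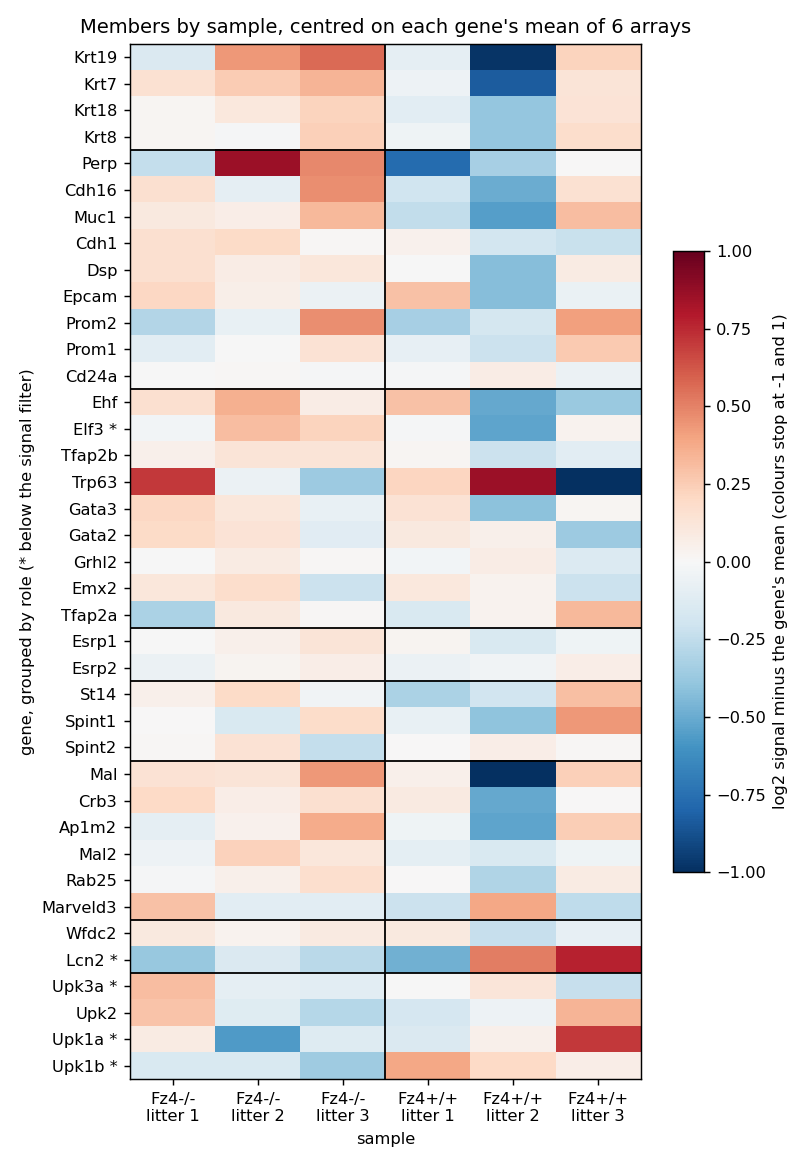
Log2 signal of each of the 39 genes in each of the 6 samples, minus the gene's mean over the samples, with genes grouped by role. The column of the Fz4+/+ sample of litter 2 is blue, thus low, for most keratin, adhesion and trafficking genes, whereas Trp63 and Marveld3 are red there.

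The size of the members' difference depended in part on 1 Fz4+/+ sample. The Fz4+/+ sample of litter 2 was the lowest of the 6 for 20 of 34 members (58.8%, against 38.0% of all tested genes). The median within-litter difference of the members was 0.056, 0.363 and 0.104 log2 in litters 1 to 3, against 0.006, 0.115 and -0.014 for all tested genes. In the same order, 24, 30 and 27 of the 34 members were above 0, against 51.7%, 71.3% and 46.2% of genes. Without the Fz4+/+ sample of litter 2, 27 of 34 members were above 0 and the median was 0.077, against -0.0040 for all tested genes. With it the medians were 0.154 and 0.034, so both fell. Where that sample is the lowest, leaving it out shrinks a positive difference by construction. Counted over litters 1 and 3 alone, a count added after the data were seen, 19 of 34 members were higher in Fz4-/- in both, against 21.6% of genes.

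**Figure D4:**
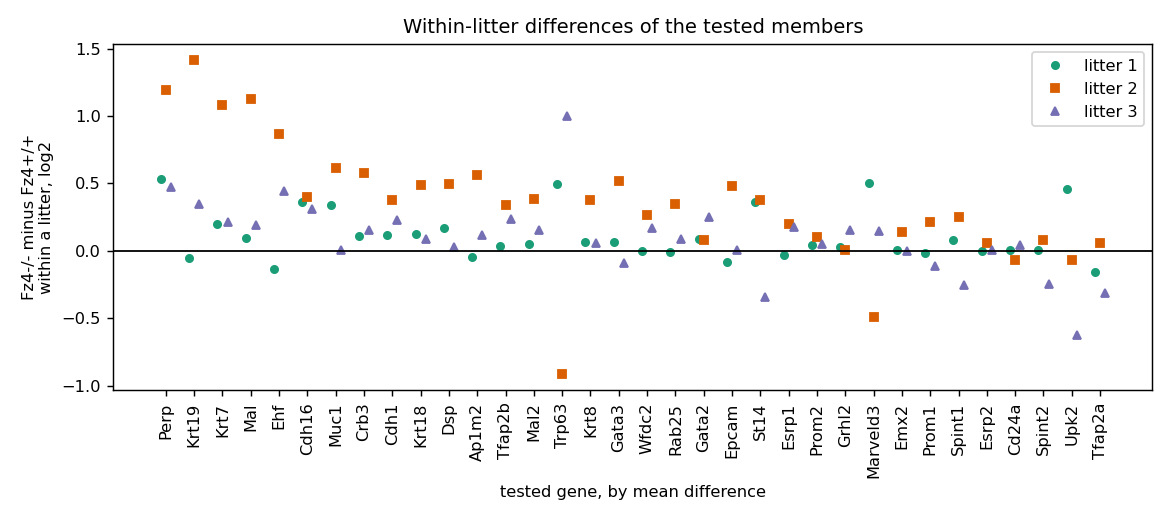
Difference between the Fz4-/- and the Fz4+/+ sample within each litter, in log2, for the 34 genes above the signal filter, ordered by their mean difference. Squares of litter 2 stand highest for most genes at the left, up to 1.42 for Krt19, and lowest for Trp63, at -0.92, while litters 1 and 3 lie nearer to 0 for most of the genes at the left and litter 3 reaches 1.00 for Trp63.

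Marker lists of other cells also differed between the samples. Striated muscle genes, of which 8 of 8 passed the filter, averaged 7.80, 6.45 and 8.01 log2 in the Fz4-/- samples of litters 1 to 3, against 7.93, 8.67 and 7.78 in the Fz4+/+ samples. Their summed linear signal ran from 1401 to 3037 in Fz4-/- samples and from 2870 to 5654 in Fz4+/+ samples, with the highest sum in the Fz4+/+ sample of litter 2. Genes of neural crest and neurons, 4 of 7 above the filter, summed to between 212 and 392 in Fz4-/- samples and between 290 and 1079 in Fz4+/+ samples, with 772 in that sample. Early nephron genes, 9 of 10 above the filter, summed to between 10888 and 13508 in Fz4-/- samples and between 10368 and 12864 in Fz4+/+ samples. Their mean log2 signal in the Fz4+/+ sample of litter 2, 9.14, was the lowest of the 6. Endothelial genes, 8 of 8 above the filter, also had their lowest mean there, 9.22 log2, and 6 of 8 lay above 0 between the genotypes, with a median of 0.171. Their summed signal ran from 6135 to 6597 in Fz4-/- samples and from 5379 to 6161 in Fz4+/+ samples. Smooth muscle genes, 3 of 5 above the filter, had 0 of 3 above 0 with a median of -0.304, and their highest mean, 8.57, was in that sample. Their sums ran from 1388 to 1427 in Fz4-/- samples and from 1553 to 1917 in Fz4+/+ samples. Liver genes, 6 of 6 above the filter, had 0 of 6 above 0 with a median of -0.49, and sums from 513 to 1413 in Fz4-/- samples and from 596 to 2069 in Fz4+/+ samples. Erythroid genes, 3 of 6 above the filter, and macrophage genes, 5 of 6, had their lowest means in the Fz4+/+ sample of litter 2, 7.25 and 7.88 log2. Nephron progenitor genes, 8 of 8 above the filter, had 2 of 8 above 0 with a median of -0.104. Cited1 among them was lower without overlap, by -0.33 ± 0.10 (SE), with limma's adjusted p of 0.999988. Signal of the 3′ end minus that of the 5′ end, which reflects RNA integrity, was 0.90 log2 for actin and 0.90 for Gapdh in the Fz4+/+ sample of litter 2, against 0.64 to 0.86 for actin and 0.75 to 0.90 for Gapdh in the other 5 samples. RMA values have no zero, so no marker reads 0, and the part of these differences in the members' values was not tested.

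**Figure D5:**
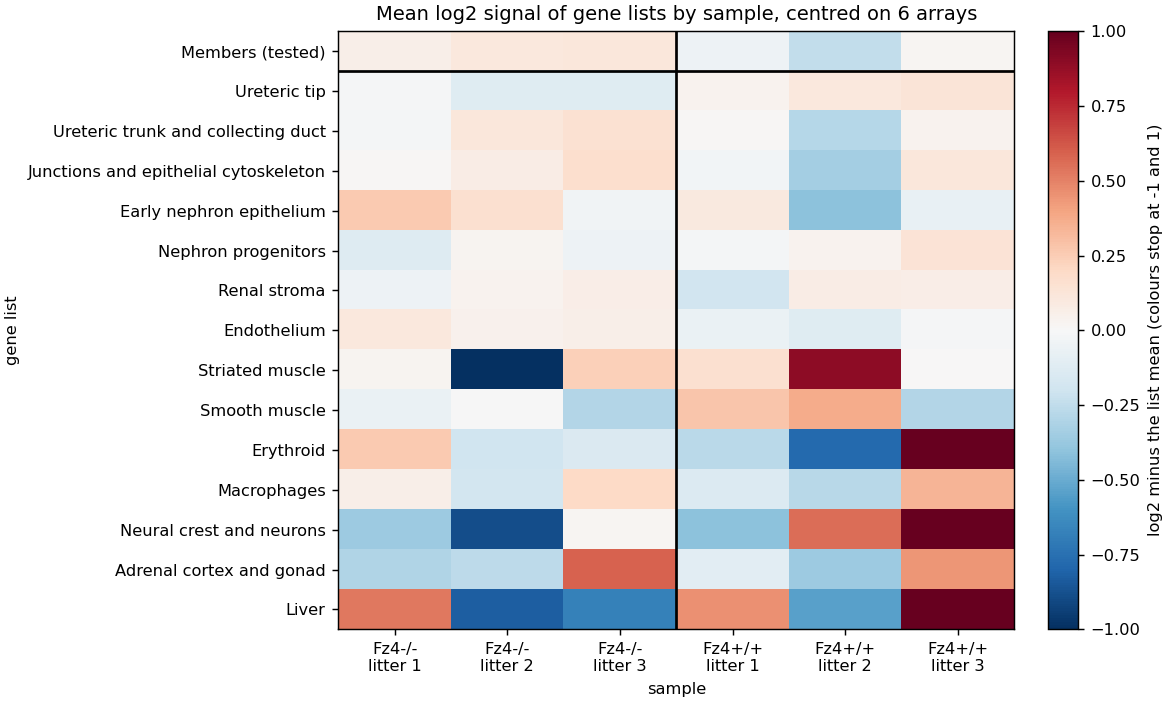
Mean log2 signal of the 34 tested members and of marker lists of other cells in each sample, minus the list's mean over the 6 samples. In the Fz4+/+ sample of litter 2 the members, the trunk, junction, early nephron, erythroid, macrophage and liver lists are low. The striated muscle, smooth muscle and neural crest lists are high there.

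Members also differed between litters, some of them by more than between genotypes. Prom2 read 5.65, 5.87 and 6.41 log2 in the Fz4-/- samples of litters 1 to 3, against 5.61, 5.77 and 6.36 in the Fz4+/+ samples, so both genotypes had their highest value in litter 3. Both samples of litter 3 lay above both of litter 1 for 14 of 34 members (41.2%, against 54.3% of tested genes). Mean gaps included 0.75 log2 for Prom2, 0.75 for Perp and 0.51 for Krt19. Both samples of litter 3 lay below both of litter 1 for 9 members (26.5%, against 16.8%). Gaps there included -1.32 for Trp63, -0.38 for Gata2, -0.37 for Ehf, -0.32 for Emx2 and -0.31 for Epcam. For Krt19 and Ehf the genotype differences, 0.57 and 0.39, were larger in size than these gaps. Litters had 1 sample of each genotype, so the litter gaps are given without a test.

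Other epithelial genes, chosen with earlier results known, were set beside the members. Of 22 junction and cytoskeleton genes 18 passed the filter, and 15 of these lay above 0 with a median of 0.193 log2. The first by unadjusted p were Tjp3, a tight junction scaffold (0.42 ± 0.24, SE), Cldn6, a claudin (0.27 ± 0.18), and Cgn, which encodes cingulin (0.32 ± 0.21). Of 14 trunk and collecting duct genes 7 passed the filter and 6 of these lay above 0, with a median of 0.165. Among them were Scnn1b, a sodium channel subunit (0.39 ± 0.18, SE), Wnt9b, the bud signal that induces nephrons (0.30 ± 0.16), and Wnt7b, a trunk Wnt (0.17 ± 0.12). In contrast, 1 of 8 ureteric tip genes lay above 0, with a median of -0.162. Etv4, a transcription factor downstream of Ret, read 8.56, 8.62 and 8.65 log2 in Fz4-/- samples, against 8.84, 8.84 and 9.13 in Fz4+/+ samples, without overlap. Sox8 and Ret, a Sox factor and the GDNF receptor of the tip, were also lower without overlap, by differences of -0.48 ± 0.21 and -0.18 ± 0.10 (SE). limma called 0 genes of these lists, with 1 at an unadjusted p under 0.05, Etv4 at 0.0354. Whether the members differ from the tip genes was not tested.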

How the data were processed

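Log2 signals per probe set, deposited by the authors, had been summarised with RMA, a tool named without a version per the submitters' processing notes; the scans were not used here. The series' table holds 45101 probe sets and 6 samples. The platform annotation, used for naming, gives 1 gene to 34958 of them. After 64 control probe sets were left out, the 27022 at or above the 40th percentile of the mean, 5.89 log2, were tested in R 4.3.3 by the moderated two-sided test of limma 3.58.1, adjusted by Benjamini-Hochberg over all probe sets at a threshold of 0.05, with genotype as the sole term. The fit was tested on simulated data drawn without litter effects, so that test does not bear on the litters. Litters pair the samples, per the labels, and deviations from the genotype means correlated by 0.577, 0.178 and 0.809 in litters 1 to 3, and between samples of different litters by -0.749 to 0.609, so litter 1's Fz4-/- sample correlated more with litter 2's Fz4+/+ sample than with its own littermate. No 2 arrays were identical, and they correlated between 0.923 and 0.99. Single values were compared by two-sided exact permutation. Per-sample values are printed for members whose groups did not overlap, for the 5 with the smallest unadjusted p, for the 3 brightest and for keratins and uroplakins. Cdh16, Trp63 and Prom2 were added after their values were seen. The members, lists and tests were chosen with earlier results of these data known. Alternatives covered the litter, weights, variance prior, filter, normalisation, probe set choice and left-out samples.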

Additional observations from a re-analysis of the deposited data

How the results depend on the processing

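No member passed limma's threshold under any of the 15 alternatives, the litter block and array weights included. With the litter as a block, limma called 0 probe sets (841 had an unadjusted p below 0.05), so pairing changed no call. Array weights called 2 probe sets, both outside the members. Of 507 member values under the alternatives 461 kept their direction and 46 reversed, all of uncalled differences. Array weights gave -0.107 for Epcam, 0.161 for Tfap2a, -0.0356 for Spint1, 0.104 for Spint2, 0.0183 for Upk2, -0.00511 for Wfdc2, 0.0086 for Cd24a and -0.232 for Trp63, and the weights were 8.81 for the Fz4-/- sample of litter 2 and 0.218 to 2.99 for the others. Averaging the probe sets of a gene gave 0.00876 for Tfap2a, -0.0621 for Grhl2, -0.0097 for Esrp2 and 0.0321 for Spint2, and quantile normalization -0.0207 for Spint1. Without litter 2 the values were -0.0365 for Epcam, -0.0115 for Gata3, -0.0865 for Spint1, -0.0664 for Prom1 and 0.0265 for Cd24a, and without litter 3 they were 0.0436 for Spint2, 0.193 for Upk2 and -0.21 for Trp63. With each sample left out in turn, the ranges of the genes that reversed were Cd24a -0.0359 to 0.0325, Emx2 -0.0461 to 0.167, Epcam -0.0419 to 0.316, Esrp2 -0.00663 to 0.0574, Gata2 -0.00488 to 0.232, Marveld3 -0.0789 to 0.262, Prom1 -0.0744 to 0.162, Prom2 -0.151 to 0.288, Spint1 -0.168 to 0.248, Spint2 -0.139 to 0.0519, Trp63 -0.439 to 0.672 and Upk2 -0.243 to 0.0719. The count of 2 members without overlap ran from 4 to 11 with a sample left out, being 11 when the Fz4+/+ sample of litter 3 was dropped and 4 when that of litter 2 was, against 23.1% and 4.03% of all tested genes. It was 7 without litter 2 and 14 without litter 3, against 5.9% and 26.4% of genes. Fewer samples make groups overlap less often by construction. The median of the members stayed above 0 wherever it was recomputed, from 0.077 to 0.228, and the cause of these shifts was not tested. Signal near background limits the uroplakins, and 3 samples a genotype limit every difference.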
